A study of Homo sapiens with 40 samples.

Results

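MCM3, MCM7, RFC5, RFC2 and RCC1 are 5 genes of DNA replication and of the Ran system, and they are described here by the splicing of their exons and introns when RNA polymerase II carried a substitution. They are 5 of the 6976 genes in the exon tables, with 22 of 16378 exon events, and MCM7 also holds 3 of the 2699 intron events. RFC2 has 8 exon events, RFC5 has 6, RCC1 has 5, MCM3 has 2 and MCM7 has 1. The genes were chosen by name with their changes in these same comparisons already known, so the values below are a description and the adjusted p-values beside them are no independent evidence. An event is 1 exon, or 1 intron, with a pair of flanking splice sites, and the same exon with other flanks is another event.

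The cells were HEK293 Flp-in T-REx, a human embryonic kidney line with a site for inducible transgenes. Every group carried an Rpb1, the large subunit of RNA polymerase II, that resists α-amanitin. Doxycycline at 2.0 mg/ml, as labelled, induced it for 12 to 16 h, and α-amanitin at 2.5 mg/ml, as labelled, then blocked the cells' own polymerase for 42 h before RNA was taken. The transgene Rpb1 was wild type (WT) or had 1 substitution, R749H, H1106Y or E1126G. R749H and H1106Y are known as slowly elongating polymerases and E1126G as a fast one. For WT, R749H and E1126G there were 2 RNA-seq libraries apiece. RASL-seq, in which probe pairs are ligated on the RNA at preselected splice junctions and counted, covered all 4 genotypes with 3 libraries apiece. The labels call the RNA-seq libraries biological replicates and do not say whether they came from separate cultures or clones.

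MCM3 and MCM7 are subunits of the ring-shaped MCM2-7 helicase, which is loaded at replication origins and unwinds the DNA ahead of the fork. RFC5 and RFC2 are small subunits of replication factor C, the clamp loader that opens the sliding clamp PCNA and places it on primed DNA. RCC1 sits on chromatin and exchanges the nucleotide on the small GTPase Ran, which sets the direction of nuclear transport and helps to build the spindle. Alternative exons are often recognised while the RNA is still being made, so the time that the polymerase spends downstream of an exon can change whether that exon is kept. The question of the comparisons is how the splicing of each exon in the mutant cells differed from that in WT cells.

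Several exons that WT cells mostly skipped were included more often in the mutants, while others stayed low. The MCM3 151-nt exon went from 10.5% in WT to 78.2% in R749H, and the RFC5 126-nt exon from 17.0% to 69.6%. A pair of overlapping RCC1 exons rose in R749H and in H1106Y and did not pass the test in E1126G. The RFC5 59-nt exon fell when read against the 126-nt exon before it, though the fall in E1126G RNA-seq was not called. Read against the full stretch, the 59-nt exon rose in H1106Y and E1126G RASL-seq. The RCC1 129-nt exon fell in all 3 mutants by RASL-seq and was not called by RNA-seq. RFC2 and MCM7 exons stayed within 4 percentage points of WT in RNA-seq, and 2 short MCM7 introns were retained less often.

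The deposited values are 1 per group and not per library, so no spread between libraries can be given. The number of reads behind each level is unknown. WT values of an event were identical in every table of an assay, so the comparisons of an assay share the WT libraries and are set side by side without a test of their agreement. Differences between mutants were not tested. A level in percent is r / (1 + r), with r the ratio of inclusion to exclusion reads, and a call is an adjusted p-value under 0.05 after Benjamini-Hochberg adjustment of the authors' deposited p-values over the whole table. The middle 95% of the changes over all events ran from -30.6 to 27.9 percentage points in R749H RNA-seq and from -23.8 to 19.9 in E1126G RNA-seq. In RASL-seq it ran from -24.3 to 25.5 in R749H, from -43.5 to 33.6 in H1106Y and from -27.9 to 18.6 in E1126G.

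**Figure D1:**
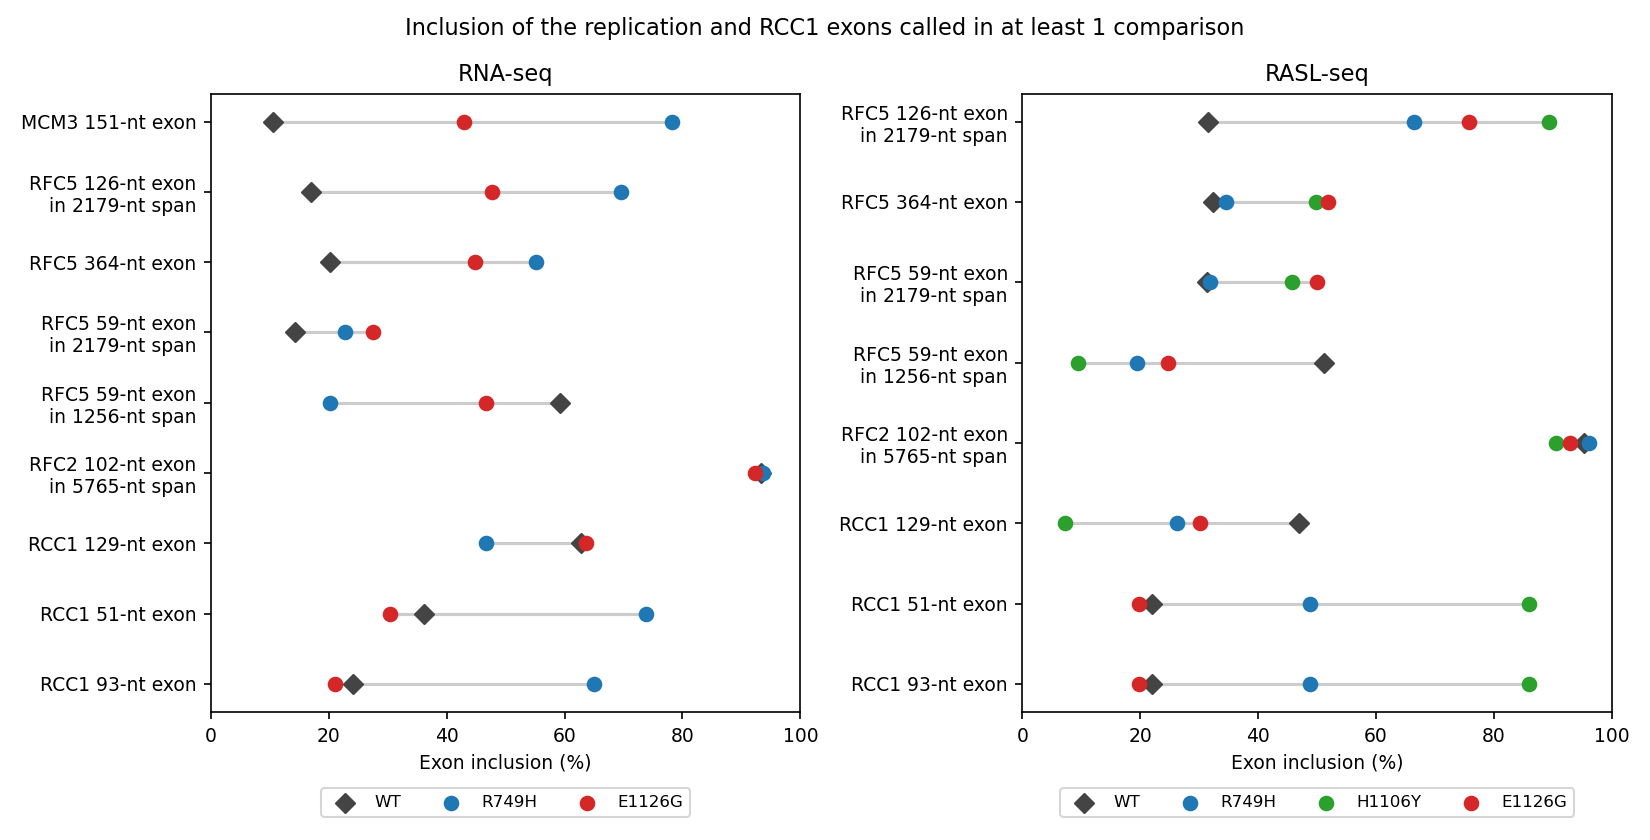
Exon inclusion in percent (x axis) in RNA-seq (left, 9 events) and RASL-seq (right, 8 events) for exon events called in at least 1 comparison, 1 point per genotype from the deposited group values and a grey line over their range. The MCM3 151-nt exon spans 10.5% in WT to 78.2% in R749H, and the RFC5 126-nt exon reaches 89.3% in H1106Y against 31.4% in WT by RASL-seq.

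MCM3 (ENSG00000112118) is on the minus strand of chromosome 6. Its 151-nt exon lies at chr6:52130033-52130183 in GRCh37, between an upstream intron of 689 nt and a downstream intron of 448 nt. RNA-seq gave its inclusion as 10.5% in WT, 78.2% in R749H and 42.9% in E1126G. It was thus a minor exon in WT, the main form in R749H and in between in E1126G. The ratio of inclusion to exclusion rose by a log2 of 4.93 in R749H in the authors' deposited table, or 30.4-fold, with a Benjamini-Hochberg adjusted p of 2.58e-61. In inclusion it rose by 67.6 percentage points, rank 7 among the increases of 14358 events, and its p ranked 2. In E1126G the log2 change was 2.67 in the authors' deposited table, or 6.38-fold, with a Benjamini-Hochberg adjusted p of 6.59e-19. That rise of 32.4 percentage points ranked 107 of 14650. The length of this exon is not a multiple of 3, so within a coding sequence its inclusion would shift the reading frame. RASL-seq had no event of MCM3, and H1106Y therefore has no value for it.

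The other MCM3 exon event was a 113-nt exon at chr6:52148092-52148204, 17908 nt upstream of the 151-nt exon. Its inclusion was 99.1% in WT, 99.5% in R749H and 99.4% in E1126G. Neither change passed the test, with Benjamini-Hochberg adjusted p-values of 0.551 and 0.783. Within the same gene, the exon that was nearly always kept in WT remained at that level in both mutants.

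MCM7, the partner subunit on chromosome 7 (minus strand, ENSG00000166508), had 1 exon event, an 84-nt exon at chr7:99694924-99695007. Inclusion was 99.9% in WT, 99.9% in R749H and 100.0% in E1126G, and neither change was called (Benjamini-Hochberg adjusted p of 0.619 and 0.409). The exon was near the top of its range in each genotype, where a rise can hardly be seen.

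The 3 MCM7 introns give a second readout. Their rows carry no gene name, and they were placed in MCM7 because they are on its strand, 1590 to 1996 nt from its exon event, with no exon event of another gene on that strand between. The gene AP4M1 overlaps the start of MCM7 on the opposite strand in RefSeq, and its nearest exon row lies 2270 to 2690 nt beyond the introns. The RNA-seq kit does not mark strand, so reads from both genes could not be told apart where they overlap.

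Retention of the 185-nt intron at chr7:99697027-99697211 was 12.5% in WT, 5.77% in R749H and 6.76% in E1126G. The ratio fell by a log2 of 1.22 in R749H and by 0.97 in E1126G in the authors' deposited tables, with Benjamini-Hochberg adjusted p-values of 2.03e-04 and 0.00861. The 75-nt intron at chr7:99696827-99696901 was retained at 20.5% in WT, 13.4% in R749H and 14.4% in E1126G. Its fall was called in R749H (Benjamini-Hochberg adjusted p of 0.00810) and not in E1126G (adjusted p of 0.0724). The 89-nt intron at chr7:99697233-99697321 was kept in nearly all RNA of each genotype, with retention of 99.6% in WT, 99.2% in R749H and 99.5% in E1126G and no call (adjusted p of 0.232 and 0.763).

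In all, 2 of the 3 introns were called lower in R749H, where 18.9% of the 2605 introns were called, 11.9% higher and 6.99% lower. In E1126G 1 of the 3 was called lower, against 9.18% of the 2615 introns called, 4.51% higher and 4.67% lower. The median log2 change of the 3 introns was -0.95 in R749H and -0.61 in E1126G, beside 0.04 and -0.02 over all introns. The direction was down in both mutants for each of the 3 introns. By the Holm adjustment in place of Benjamini-Hochberg, 1 was called in R749H and 0 in E1126G, where 2 had an unadjusted p under 0.05.

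**Figure D2:**
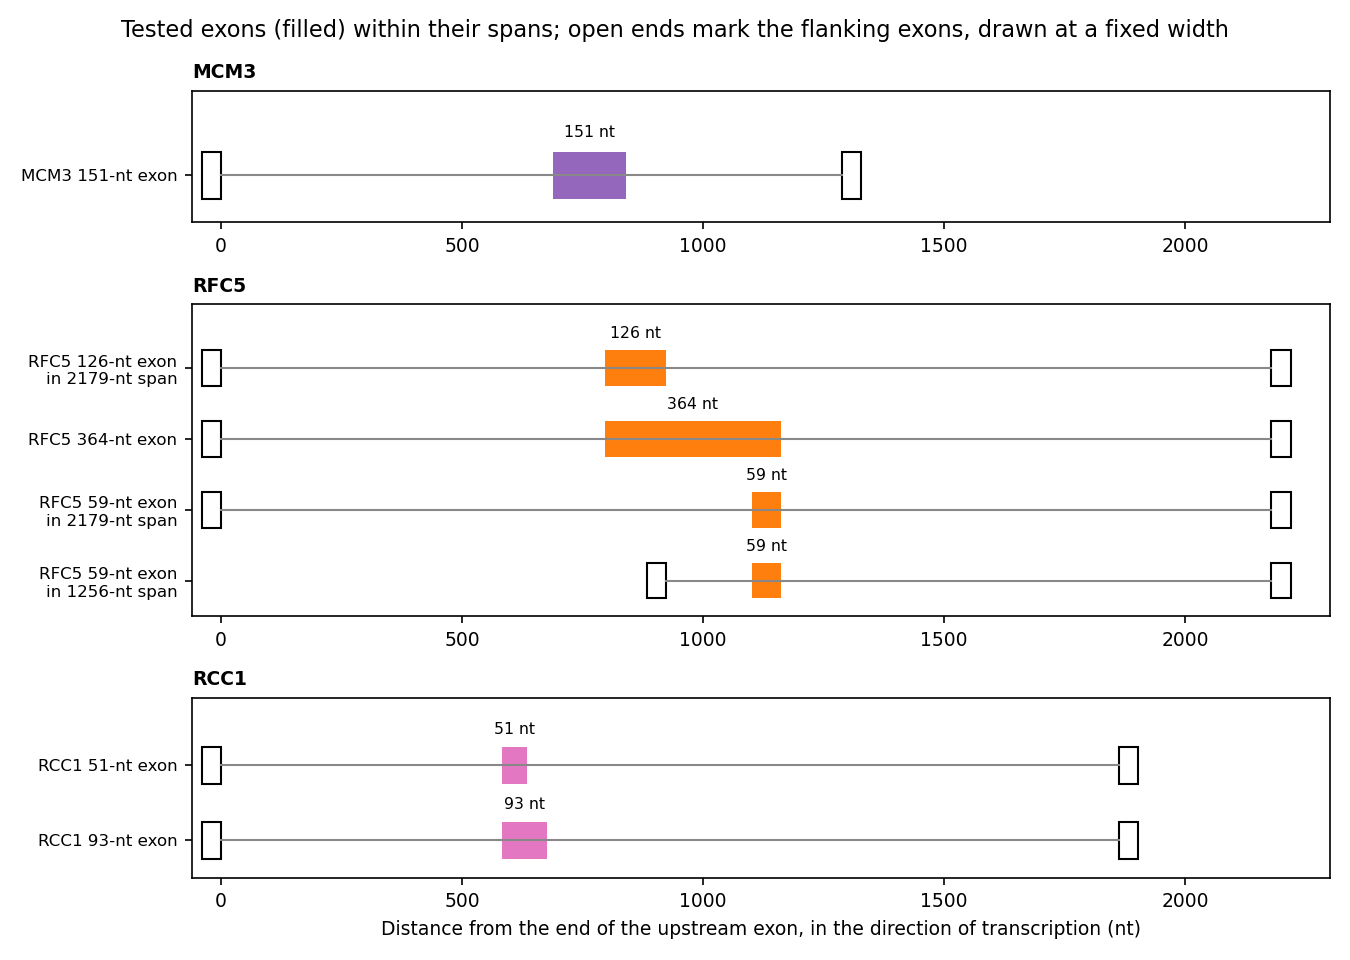
Positions of the called MCM3, RFC5 and RCC1 exons within their spans of under 3000 nt, drawn to scale along the direction of transcription (x axis, distance in nt from the end of the upstream flanking exon). Filled boxes are the tested exons and open ends the flanking exons, and the RFC5 126-nt and 59-nt exons are seen to lie within the 364-nt exon.

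RFC5 (ENSG00000111445) is on the plus strand of chromosome 12, and its 6 exon events fall in 1 stretch of 2179 nt. A 126-nt exon at chr12:118455495-118455620 and a 59-nt exon at chr12:118455800-118455858 lie in this stretch, 179 nt apart. A 364-nt exon runs from the start of the first to the end of the other and so also holds the interval between them. Events that share a span share the reads that skip it, so the RFC5 events are views of the same set of junctions and are not independent.

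The 126-nt exon, equal to 42 codons in length, changed most. Its inclusion in RNA-seq was 17.0% in WT, 69.6% in R749H and 47.7% in E1126G. In RASL-seq it was 31.4% in WT, 66.5% in R749H, 89.3% in H1106Y and 75.8% in E1126G. All 5 mutant values were above the WT value of their assay, and H1106Y had the highest. The authors' deposited tables gave log2 changes of 3.49 in R749H and 2.16 in E1126G by RNA-seq, with Benjamini-Hochberg adjusted p-values of 2.94e-14 and 8.56e-05. By RASL-seq the authors' deposited tables gave 2.12 in R749H, 4.18 in H1106Y and 2.77 in E1126G, with Benjamini-Hochberg adjusted p-values of 2.70e-17, 5.92e-126 and 3.57e-103. Among the RASL-seq increases in inclusion, the exon ranked 22 of 2248, 6 of 2070 and 3 of 2312.

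E1126G lay below R749H in RNA-seq and above it in RASL-seq for this exon. The rises in RNA-seq were 52.7 percentage points for R749H and 30.8 for E1126G, and those in RASL-seq were 35.1 and 44.3. The order of these mutants therefore was not the same in both assays, and the difference was not tested. H1106Y, at 57.9 percentage points, was measured by RASL-seq alone.

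The 59-nt exon moved the other way when it was read against the 126-nt exon. In the 1256-nt span whose upstream flank is the 126-nt exon, its RNA-seq inclusion was 59.2% in WT, 20.2% in R749H and 46.7% in E1126G. RASL-seq gave 51.1% in WT, 19.5% in R749H, 9.35% in H1106Y and 24.7% in E1126G. In each mutant the level was below that of WT, although the E1126G RNA-seq value was not called. Reads of the junction after the 59-nt exon can also come from RNA without the 126-nt exon. The level therefore need not describe only the RNA that kept the 126-nt exon. The log2 change in the authors' deposited tables was -2.51 in R749H and -0.73 in E1126G by RNA-seq, with Benjamini-Hochberg adjusted p-values of 6.10e-06 and 0.547. By RASL-seq the authors' deposited tables gave -2.11 for R749H, -3.34 for H1106Y and -1.68 for E1126G, with Benjamini-Hochberg adjusted p-values of 6.09e-16, 1.67e-83 and 8.54e-38. The junction from the 126-nt exon to the exon past the 59-nt exon counts as skipping in this event and as inclusion in the event of the 126-nt exon, so the rise and the fall share reads.

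Read against the full 2179-nt span, the same 59-nt exon was included at 14.2% in WT, 22.7% in R749H and 27.4% in E1126G by RNA-seq, with neither change called (Benjamini-Hochberg adjusted p of 0.275 and 0.130). RASL-seq gave 31.3% in WT, 31.8% in R749H, 45.8% in H1106Y and 50.0% in E1126G. Here H1106Y and E1126G were higher (Benjamini-Hochberg adjusted p of 1.28e-06 and 2.80e-17) and R749H was not called (0.916). The direction for this exon thus depended on which RNAs it was compared with, those that skip the whole stretch or those that already hold the 126-nt exon.

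Values of the long 364-nt exon, which spans the short exons and the interval between them, also rose. It starts with the 126-nt exon and ends with the 59-nt exon, so its outer junctions are also theirs. Whether the interval itself was kept more often cannot be told from these values. RNA-seq inclusion of the 364-nt exon was 20.1% in WT, 55.1% in R749H and 44.8% in E1126G, with Benjamini-Hochberg adjusted p-values of 1.99e-06 and 0.00367. The E1126G call of this exon was lost under the Holm adjustment. RASL-seq gave 32.3% in WT, 34.5% in R749H, 49.8% in H1106Y and 51.8% in E1126G. The R749H change passed the test in RNA-seq and not in RASL-seq (adjusted p of 0.600), while H1106Y and E1126G passed in RASL-seq (8.72e-08 and 5.83e-19). Its RASL-seq levels lay within 5 percentage points of those of the 59-nt exon in the same span for each genotype.

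A pair of further RFC5 events was listed for E1126G RNA-seq alone, both in a span of 1102 nt that ends at the 59-nt exon. The 126-nt exon stood there at 87.5% in WT and 97.1% in E1126G, and a 163-nt form at chr12:118455495-118455657 stood at 88.2% and 97.1%. Neither was called (Benjamini-Hochberg adjusted p of 0.387 and 0.439). The 163-nt form shares its start with the 126-nt exon and uses a later 5′ splice site.

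RFC2 (minus strand of chromosome 7, ENSG00000049541) encodes another clamp-loader subunit, and its 8 events moved by under 5 percentage points. In RNA-seq no RFC2 event was called in either mutant by Benjamini-Hochberg adjustment (adjusted p from 0.397 to 0.973), and 0 had an unadjusted p under 0.05. Over all events 15.1% were called in R749H and 6.48% in E1126G, so at 8 events nothing is read from the absence of calls. A 120-nt exon was skipped in nearly all RNA, at 5.47% in WT, 5.63% in R749H and 5.01% in E1126G. The other 7 events stood between 88.7% and 98.2% in WT and between 85.0% and 97.9% in the mutants. These 7 are built from a 102-nt, a 107-nt, a 209-nt and a 70-nt exon with different flanks, so several share reads.

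The 102-nt exon of RFC2 at chr7:73660992-73661093, 34 codons long, was the only RFC2 event on RASL-seq. RASL-seq inclusion was 95.3% in WT, 96.1% in R749H, 90.5% in H1106Y and 92.9% in E1126G. H1106Y and E1126G were called lower, with log2 changes of -1.09 and -0.62 in the authors' deposited tables and Benjamini-Hochberg adjusted p-values of 6.57e-09 and 5.63e-05, and R749H was not (0.261). In inclusion these falls were -4.80 and -2.37 percentage points. With the ratio halved to allow for an included exon having 2 junctions, they were -8.37 and -4.23. RNA-seq gave 93.4% in WT, 93.6% in R749H and 92.3% in E1126G for this event, with no call (0.973 and 0.828).

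RCC1 (ENSG00000180198) is on the plus strand of chromosome 1. A 51-nt exon at chr1:28857035-28857085 and a 93-nt exon at chr1:28857035-28857127 start at the same base and differ in their 5′ splice site. They are 17 and 31 codons long. RNA-seq inclusion of the 51-nt exon was 36.2% in WT, 73.8% in R749H and 30.3% in E1126G. For the 93-nt exon it was 24.1% in WT, 64.9% in R749H and 21.0% in E1126G. Values of both forms rose in R749H, and in E1126G both lay slightly under WT without a call. The forms lie in the same span, so they share the upstream junction and the reads that skip them. Their RNA-seq values are therefore not independent, and a separate rise of each form was not tested.

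The log2 changes in the authors' deposited table for R749H RNA-seq were 2.31 for the 51-nt and 2.55 for the 93-nt exon, with Benjamini-Hochberg adjusted p-values of 6.82e-09 and 1.61e-10. For E1126G the authors' deposited table gave -0.39 and -0.25, with Benjamini-Hochberg adjusted p-values of 0.607 and 0.781. RASL-seq held the same levels for both forms, so the pair counts as 1 measurement there. It was 21.9% in WT, 48.8% in R749H, 85.9% in H1106Y and 19.7% in E1126G. H1106Y was 64.0 percentage points above WT, rank 2 among the increases of 2070 events, and E1126G was 2.21 below it. For the 51-nt exon the log2 changes were 1.77, 4.45 and -0.19 in the authors' deposited tables for R749H, H1106Y and E1126G, with Benjamini-Hochberg adjusted p-values of 3.32e-14, 1.49e-77 and 0.140.

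In both assays, then, R749H was above WT for these RCC1 exons and E1126G was not called. Whether R749H and E1126G differed was not tested, since the tables hold each mutant only against WT. The MCM3 151-nt exon, measured by RNA-seq alone, and the RFC5 126-nt exon were called higher in E1126G as well as in R749H.

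The RCC1 129-nt exon at chr1:28843237-28843365, 43 codons long, lies in a span of 20952 nt near the start of the gene. Its RASL-seq inclusion was 47.0% in WT, 26.2% in R749H, 7.14% in H1106Y and 30.1% in E1126G. All 3 mutants were lower, H1106Y by the most, and all were called, with Benjamini-Hochberg adjusted p-values of 3.97e-08, 1.05e-51 and 8.03e-12. The log2 changes in the authors' deposited tables were -1.32, -3.53 and -1.04. RNA-seq gave 62.7% in WT, 46.7% in R749H and 63.6% in E1126G, with no call (Benjamini-Hochberg adjusted p of 0.521 and 0.979). The noncoding gene SNHG3 overlaps the start of RCC1 on the same strand in RefSeq, so reads of this event may belong to either gene.

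The last pair of RCC1 events was not called. A 143-nt form of the 129-nt exon, listed for E1126G RNA-seq alone, stood at 97.1% in WT and 93.3% in E1126G (Benjamini-Hochberg adjusted p of 0.654). An 84-nt exon at chr1:28859186-28859269 was nearly absent, at 1.76% in WT, 5.46% in R749H and 3.96% in E1126G (0.136 and 0.396).

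**Figure D3:**
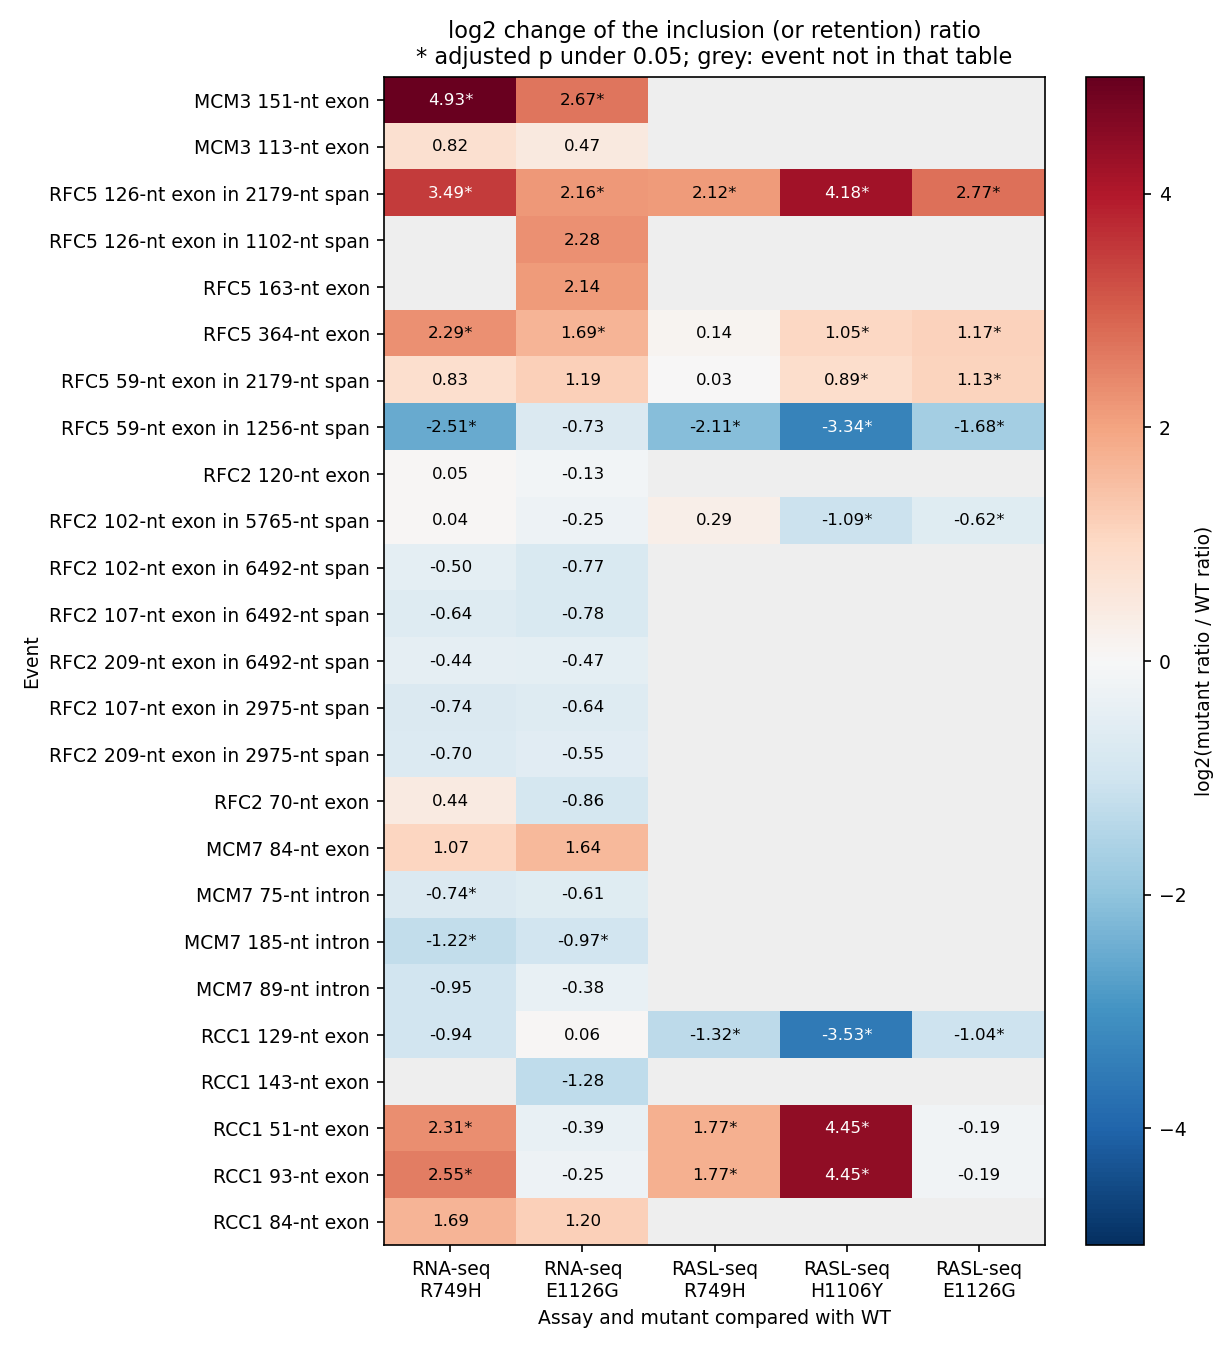
Log2 change of the inclusion or retention ratio, mutant over WT (colour scale), for each exon and intron event (y axis) in each comparison (x axis), from the deposited tables, with a star where the adjusted p is under 0.05 and grey where the event is not listed. The RFC5 126-nt exon is up in all 5 comparisons (log2 of 2.12 to 4.18), while the RCC1 51-nt and 93-nt exons are up in R749H and H1106Y and slightly down in E1126G.

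Across the 5 genes, 6 of 19 exon events were called in R749H RNA-seq, 5 higher and 1 lower, where 15.1% of all 14358 events were called, 7.07% higher and 8.04% lower. In E1126G RNA-seq 3 of 22 were called, all higher, where 6.48% of all events were called, 2.20% higher and 4.27% lower. The 3 were the MCM3 151-nt exon and the RFC5 126-nt and 364-nt exons. Because the genes were chosen on these comparisons, nothing is read from the gap between their shares and the background.

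RASL-seq covered 8 events of 3 of the genes, 4 in RFC5, 3 in RCC1 and 1 in RFC2. In R749H 5 of 8 events were called, 3 higher and 2 lower, beside 44.1% of all events, 24.0% higher and 20.1% lower. In H1106Y all 8 were called, 5 higher and 3 lower, beside 61.9% of all events, 23.7% higher and 38.2% lower. In E1126G 6 of 8 were called, 3 higher and 3 lower, beside 47.5% of all events, 13.9% higher and 33.6% lower.

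Sizes of change are listed in the same way, and nothing is read from their gap to all events, since the genes were chosen on these comparisons. Several of the RASL-seq events also share reads or values. In RASL-seq the median absolute change was 23.9 percentage points in R749H, 40.8 in H1106Y and 17.8 in E1126G, beside 2.93, 5.76 and 2.96 over all events. In RNA-seq it was 3.42 in R749H and 2.77 in E1126G, beside 2.56 and 2.10. The median log2 change of the 5 genes' events was 0.44 in R749H RNA-seq and -0.19 in E1126G RNA-seq, beside 0.00 and -0.08. For RASL-seq it was 0.22, 0.97 and -0.19 in R749H, H1106Y and E1126G, beside 0.05, -0.33 and -0.37.

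WT levels are given beside the calls for R749H RNA-seq. The 5 events called higher in R749H RNA-seq had WT inclusion of 10.5% to 36.2%, with a median of 20.1%, and the 13 uncalled events had a median of 94.2%. Over all events of that table the median WT inclusion was 45.4% for those called higher, 88.4% for those called lower and 92.1% for those not called. The RFC5 event called lower stood at 59.2% in WT, and the uncalled events also held the rarely included RFC2 120-nt and RCC1 84-nt exons. In R749H RASL-seq the order over all events was not the same, with a median of 67.7% for those called higher and 53.2% for those called lower. The other RASL-seq comparisons had the order of R749H RNA-seq. Their medians were 42.1% for higher and 79.9% for lower in H1106Y, and 60.8% and 66.1% in E1126G.

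**Figure D4:**
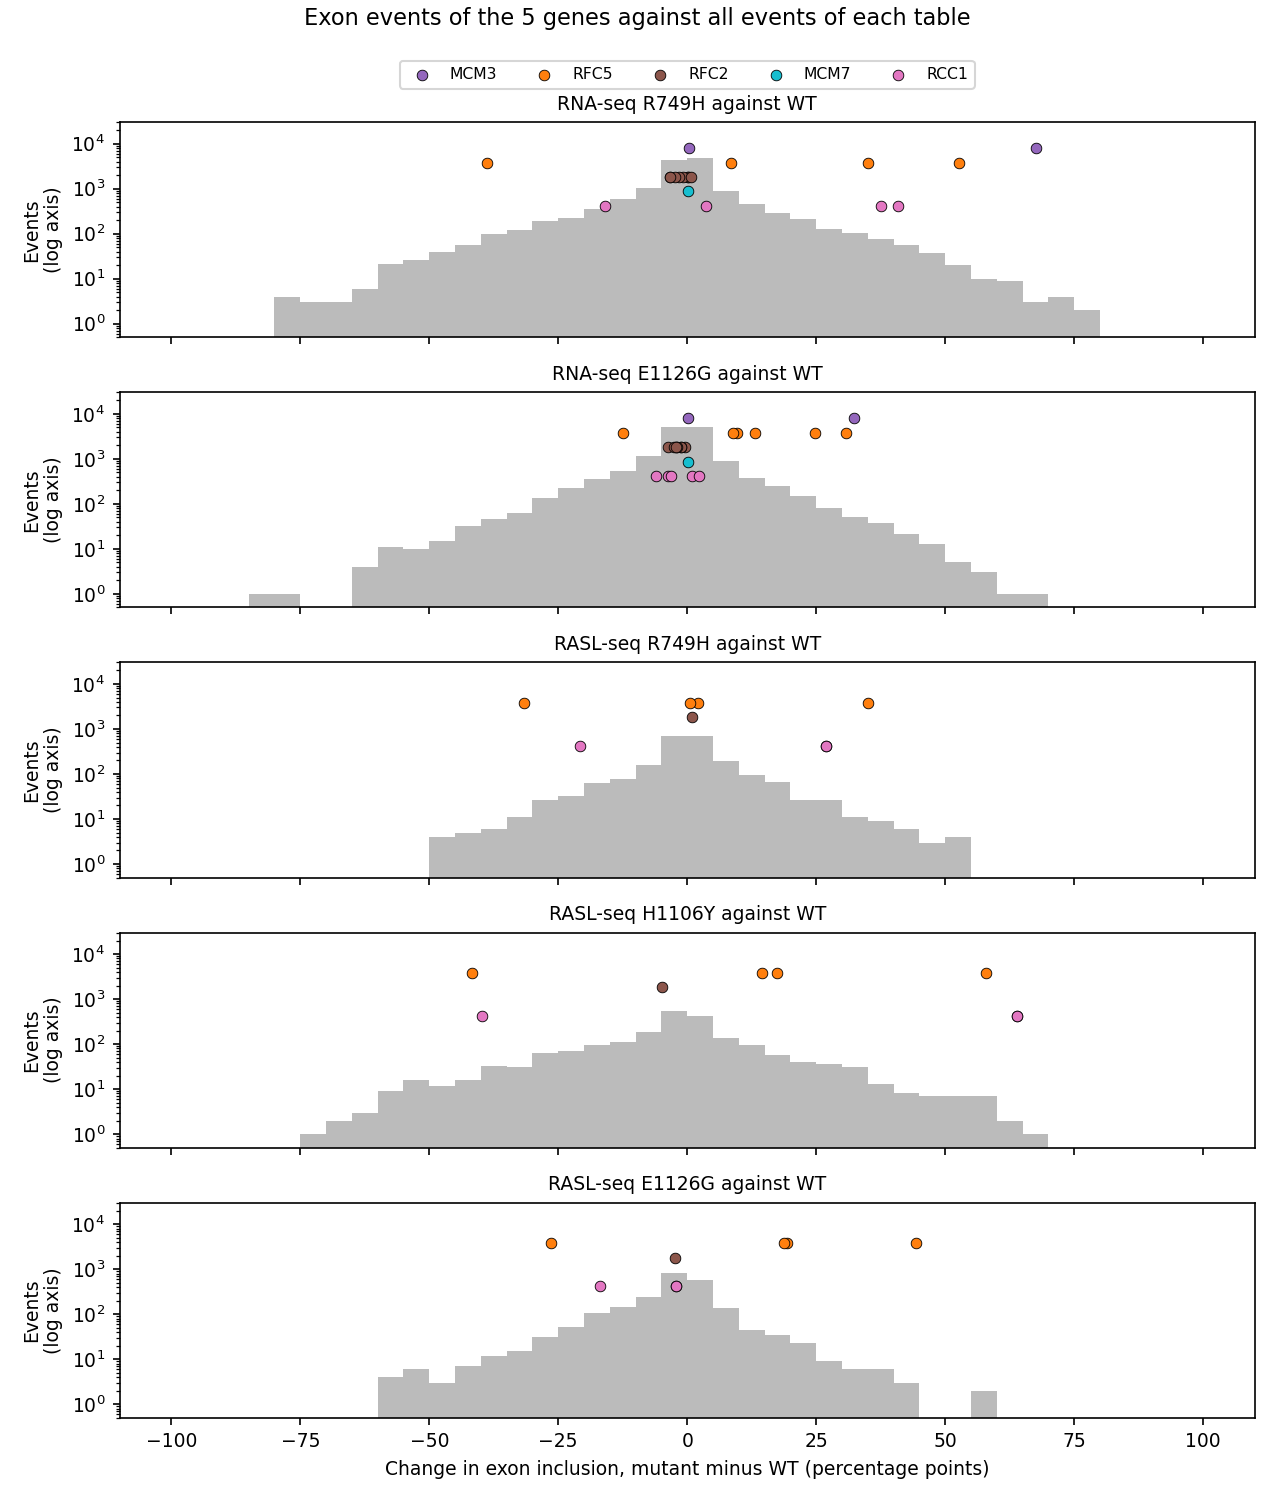
Number of exon events (y axis, log scale) by change in inclusion, mutant minus WT, in percentage points (x axis), for all events of each of the 5 exon tables in grey, with the events of the 5 genes marked by colour. Most grey events lie near 0, and the MCM3 151-nt exon at 67.6 and the RFC5 126-nt exon at 52.7 in R749H RNA-seq lie beyond the upper end, 27.9, of the middle 95% of changes.

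In length and reading frame the exons of the 5 genes lay close to all exons of the tables. Of their 17 distinct exons 8, or 47.1%, had a length that is a multiple of 3, beside 43.8% of all 15189 exons. The median length was 113 nt beside 109 nt. The RFC5 126-nt exon, the RFC2 102-nt exon and the RCC1 51-nt, 93-nt and 129-nt exons were among the 8, and the MCM3 151-nt and RFC5 59-nt exons were not.

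RNA-seq and RASL-seq libraries measured 8 of these events in common. For R749H all 8 had the same sign of change in both assays, and 4 were called in both, in the same direction. The RFC2 102-nt exon was among the 8 with changes of only 0.151 percentage points in RNA-seq and 0.829 in RASL-seq, neither called. For E1126G 7 of 8 had the same direction, the RCC1 129-nt exon being the exception, and 2 were called in both, in the same direction. A further 4 E1126G events were called by RASL-seq alone, which were the RFC5 59-nt exon in both spans, the RFC2 102-nt exon and the RCC1 129-nt exon. Because the RFC5 events share reads and the RCC1 pair shares RASL-seq values, the 8 are fewer than 8 separate measurements. The share of like signs over all events listed in both assays was not determined, so nothing is read from these counts.

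Few exon events of the closest relatives were listed, most of them near 0% or 100% in WT, and at so few events a count of 0 is near the background of 15.1% in R749H and 6.48% in E1126G. Of the other MCM2-7 subunits MCM2 and MCM5 had 3 exon events, and 0 were called in either RNA-seq table, with 0 at an unadjusted p under 0.05. Their changes in inclusion ran from -0.225 to 1.04 percentage points in R749H and from -0.317 to 0.0410 in E1126G. Of the other replication factor C subunits RFC1 and RFC4 had 5 events in R749H and 4 in E1126G, again with 0 called by Benjamini-Hochberg adjustment and 0 at an unadjusted p under 0.05. Those changes ran from -0.848 to 0.170 and from -0.209 to 0.508 percentage points.

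A wider list held 65 other DNA replication genes, of which 41 had an exon event. In R749H RNA-seq 18 of their 88 events, in 15 genes, were called, 6 higher and 12 lower, or 20.5% beside the 15.1% of all events. In E1126G RNA-seq 5 of 87 were called, 1 higher and 4 lower, or 5.75% beside 6.48%. The median log2 change was -0.16 in R749H and -0.10 in E1126G, beside 0.00 and -0.08 over all events. In both RNA-seq tables more called events of the list were lower than higher, which was also the case over all events (8.04% lower and 7.07% higher in R749H, 4.27% and 2.20% in E1126G).

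POLE, the catalytic subunit of DNA polymerase epsilon, had a 165-nt exon that rose from 2.36% in WT to 36.5% in R749H and 9.76% in E1126G (Benjamini-Hochberg adjusted p of 6.7e-21 and 0.0040). POLE2, its accessory subunit, had a 78-nt exon that fell from 79.4% to 52.1% in R749H and 53.3% in E1126G (0.0050 and 0.045). GINS1, a subunit of the GINS complex of the replicative helicase, had a 122-nt exon that rose from 10.3% to 34.8% in R749H (0.0012). ORC4, a subunit of the origin recognition complex, had a 74-nt exon that fell from 97.2% to 73.5% in R749H and 78.5% in E1126G (2.6e-06 and 1.1e-04). These exons show both directions in factors that act beside MCM3 and RFC5 at the origin and the fork.

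RASL-seq had 5 events of the list. In R749H 2 were called, both higher, beside 44.1% of all events. In H1106Y 5 were called, 4 higher and 1 lower, beside 61.9% of all events. In E1126G 1 was called, lower, beside 47.5% of all events. CHTF8, a subunit of an alternative clamp-loader complex that shares its small subunits with replication factor C, had a 118-nt exon at 40.6% in WT, 56.3% in R749H and 82.2% in H1106Y (Benjamini-Hochberg adjusted p of 2.0e-06 and 1.9e-50). In E1126G RASL-seq this exon stood at 39.4% without a call (0.69). DBF4B, a regulator of the kinase CDC7, had an 88-nt exon at 71.2% in WT, 81.4% in R749H and 88.9% in H1106Y (2.9e-04 and 3.3e-15). It stood at 71.6% in E1126G, also without a call (0.88). A GINS3 117-nt exon rose from 0.570% to 6.04% in H1106Y (2.7e-07), and a CDC7 96-nt exon fell from 93.0% to 89.3% in E1126G (7.7e-09) and rose to 94.9% in H1106Y (0.034). The event called lower in H1106Y was a RAD17 104-nt exon, from 9.39% to 5.15% (0.017). In R749H RNA-seq, exons of the same lengths in CHTF8, DBF4B and GINS3 were not called (Benjamini-Hochberg adjusted p of 0.23, 0.090 and 0.77). A 96-nt exon of CDC7 was called lower there (0.040).

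The Ran cycle list, the partners of RCC1, held 10 genes, of which 8 had an exon event in RNA-seq and none was on RASL-seq. In R749H 2 of 12 events were called, both higher, or 16.7% beside 15.1% of all events. They were a 253-nt exon of RANGAP1, the GTPase-activating protein of Ran, from 29.6% to 77.0% (Benjamini-Hochberg adjusted p of 0.0030), and a 121-nt exon of XPO1, an export receptor, from 5.35% to 41.7% (9.6e-15). In E1126G 2 of 16 were called, both lower and both in RAN itself, or 12.5% beside 6.48%. These RAN events were overlapping exons of 34 nt, from 98.0% to 93.5%, and 46 nt, from 99.3% to 97.7% (9.1e-06 and 2.8e-05). The RANGAP1 exon stood at 66.7% in E1126G without a call (0.095). The median log2 change of the list was -0.31 in R749H and -0.78 in E1126G.

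**Figure D5:**
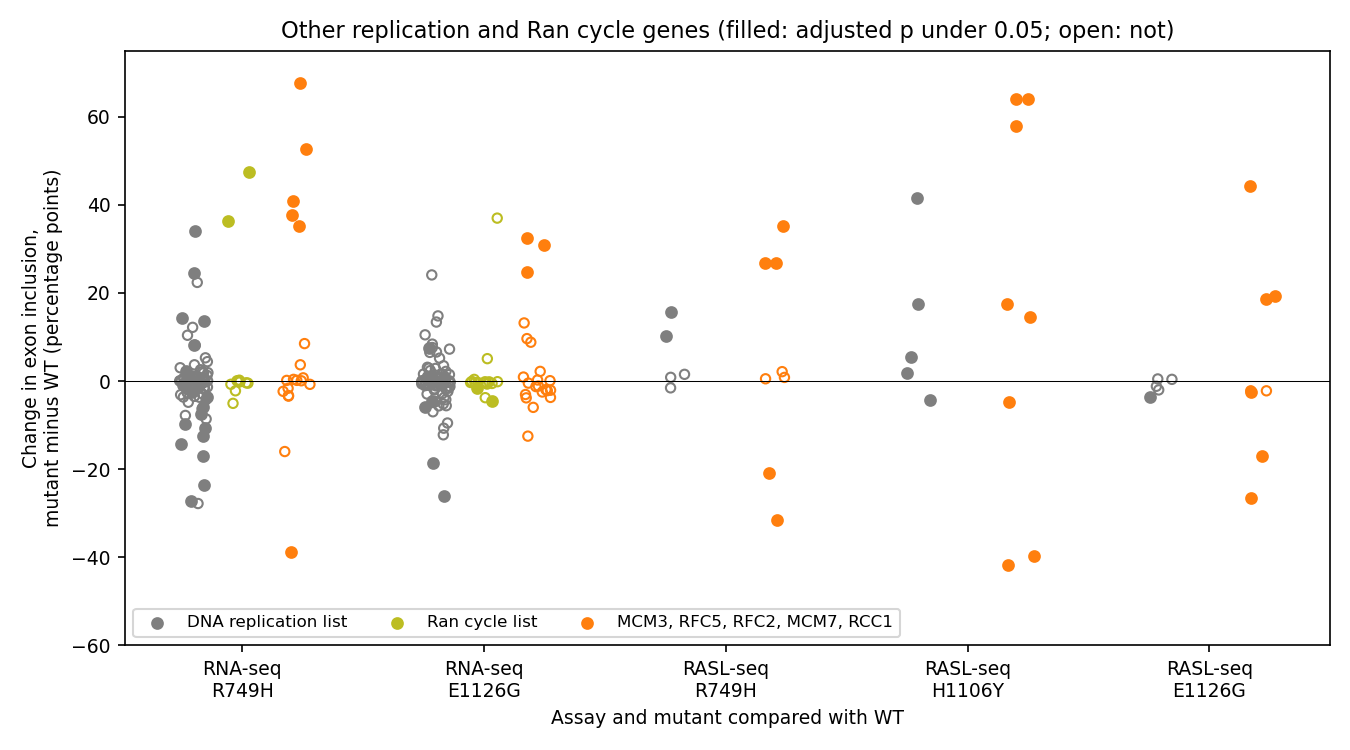
Change in exon inclusion, mutant minus WT, in percentage points (y axis) for each exon event of the other DNA replication genes, the Ran cycle genes and the 5 genes described here in each comparison (x axis), 1 point per event, filled where the adjusted p is under 0.05. Called events lie on both sides of 0 in R749H RNA-seq, 6 higher and 12 lower among the replication genes, with POLE at 34.1 and RANGAP1 at 47.4.

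Likeness to other exons was measured as the Euclidean distance between the 5 changes in inclusion, over 1430 events listed in all 5 exon tables. It is a description only, since the comparisons share WT libraries. Nearest to the RFC5 126-nt exon was a 456-nt exon of SRSF3, an SR splicing factor, at 24.6 percentage points, with changes of 73.3 and 38.1 in R749H and E1126G RNA-seq and 29.9, 58.0 and 34.6 in R749H, H1106Y and E1126G RASL-seq. A 68-nt exon of DIS3, a catalytic subunit of the RNA exosome, followed at 37.3, and a 449-nt exon of SRSF7, another SR factor, at 43.8. Nearest to the RCC1 51-nt exon were a 90-nt exon of TRA2A, also a splicing regulator, at 20.2, the SRSF7 exon at 22.9 and a 120-nt exon of ACIN1 at 27.3. In E1126G the RCC1 51-nt exon changed by -5.97 in RNA-seq and -2.21 in RASL-seq. There the changes were -0.479 and 5.73 for TRA2A, 8.61 and 9.41 for SRSF7, and 11.5 and 11.8 for ACIN1. The same 3 exons were nearest to the RCC1 93-nt exon, at 20.9 to 26.2.

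The RFC5 59-nt exon in the 1256-nt span lay 9.09 percentage points from a 117-nt exon of BANP, 9.98 from a 1017-nt exon of NASP, a histone chaperone, and 10.4 from a 78-nt exon of RIF1, a regulator of replication timing. The RCC1 129-nt exon lay 6.56 from a 91-nt exon of TGDS, 10.1 from a 33-nt exon of PPFIBP1 and 13.4 from a 223-nt exon of ZNF271P. For the RFC5 364-nt exon the nearest were in PAX6 (12.8), TIMM8B (16.4) and HNRNPD (16.7), and for the 59-nt exon in the 2179-nt span in ABCC1 (7.48), SLCO4A1 (10.3) and CEP295 (12.4). The RFC2 102-nt exon, with small changes, lay 1.39 to 2.32 from exons of IPO11, LSM14A and DNAJC8.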

How the data were processed

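RNA-seq (6 libraries) and RASL-seq (12 libraries) comparisons were used, and GRO-seq was not analysed here. Each of the 7 tables compares 1 mutant with WT and gives no value per library. For every event the authors deposited a natural log (inclusion over exclusion reads in WT), a log2 change of that ratio (mutant over WT) and an unadjusted p-value. Which test made the p-value was not given in the sources used here. Base and sign of the logs were tested on the files themselves, where the natural log gave WT ratios of whole numbers (denominator up to 300, within a relative 1e-09) for 62.9% to 94.4% of events. Base 2 gave no more than 0.396%. A higher intron ratio was taken to mean more retention, since 40 of 45 gaps under 40 nt lay above the midpoint. Tables named by a code were taken as R749H, whose samples list them. RNA-seq reads were mapped with TopHat 1.4.1 to GRCh37, and Bowtie 0.12.7 and edgeR 3.7.17 were also named without a role, per the submitters' processing notes.

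Coordinates are printed 1-based. No annotation of GRCh37 was used, so whether an exon is coding or untranslated was not determined. Inclusion in percent was 100 r / (1 + r) for a ratio r. P-values were adjusted over each whole table (Benjamini-Hochberg, threshold 0.05; Python 3.11.15, pandas 2.3.3), a step tested on simulated data. Depth is unknown. The members and gene lists were chosen with earlier results of these data known. Events called in at least 1 table or listed in both assays were described in full, with up to 3 called events of the lists per table by largest change and the 3 nearest events by distance. Other thresholds, Holm adjustment, a filter on WT level and a halved ratio were tried.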

Additional observations from a re-analysis of the deposited data

How the results depend on the processing

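With the Holm adjustment 1 MCM7 intron was called in R749H (2 by Benjamini-Hochberg) and 0 in E1126G (1 by Benjamini-Hochberg), and at a threshold of 0.1 there were 2 in E1126G. Of the replication and Ran lists, 3 RASL-seq events were called in H1106Y at a threshold of 0.01 (5 at 0.05) and 2 in E1126G at 0.1 (1 at 0.05). Every other count under the thresholds, the Holm adjustment, the filter of 5% to 95% WT inclusion, the overlap rule for introns and the counting of identical rows once (chosen after seeing the data) was within 1.5 times its main value. Within that range, E1126G RNA-seq went from 3 called exon events to 2 under Holm, losing the RFC5 364-nt exon. With the ratio halved, all 28 called exon changes kept their direction, at 0.672 to 1.78 times the main size. No paired analysis was possible because the deposited tables hold comparisons with no value per library. For the same reason no library could be left out, and the p-values cannot be checked against the spread between libraries.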
